A study of Arabidopsis thaliana with 15 samples.

Results

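The cytosolic 40S ribosomal protein genes described here are 40 nuclear genes of Arabidopsis thaliana that encode proteins SA and S3 to S25 of the small ribosomal subunit. They were chosen by locus identifier out of 37361 genes in the count files, and they fall into 19 protein families. No measured value entered that rule, but earlier results of these data were known when it was set. In this set, 16 of these families are represented by at least 2 paralogs and 3 by a single gene (S8, S11 and S21). The RefSeq product name placed each locus in a ribosomal protein family, although bacterial-style names differ from the eukaryotic ones (the S14 genes are annotated as S11 family, for example). After the filter on low counts 38 members could be tested. The other 2 were AT5G09500, an S15 gene, with 0 to 3 counts per library, and AT3G09680, an S23 gene, with 0 to 6 counts per library.

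The study profiled RNA that carries nicotinamide adenine dinucleotide (NAD+) at its 5′ end in poly(A) RNA of whole seedlings. In NAD-seq an enzyme swaps part of the NAD cap for an alkyne or azide handle, a click reaction adds biotin, and streptavidin captures the RNA. SPAAC is the copper-free click reaction and CuAAC the copper-catalysed one. The 15 libraries formed 5 groups of 3, namely m7G-depleted SPAAC, mock SPAAC, m7G-depleted CuAAC, mock CuAAC, and mock mRNA, which was standard mRNA-seq of mock-treated RNA. All groups came from wild-type Col-0 seedlings aged 12 days, grown on 1/2 MS plates with 16 h of light. For m7G depletion, poly(A) RNA was incubated with an antibody to the ordinary m7G cap and the unbound RNA was kept, and the mock treatment left the antibody out. Captured RNA can include RNA without an NAD cap, because no library made without the tagging enzyme was analysed here. Markers of green tissue (5 of 5) and of roots (5 of 5) were above 0 in every group, as the seedling label says. The labels do not say whether the 3 libraries of a group came from separate plants, so p-values measure the spread between these libraries, which may be technical.

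The 40S subunit binds mRNA and the initiator tRNA, scans the 5′ leader for the start codon and holds the decoding site. In plants nearly every ribosomal protein is encoded by a small family of paralogs, whose products are close to identical. Their promoters commonly carry a telo box (AAACCCTA) and site II elements (TGGGCC or TGGGCT), which are associated with expression in dividing cells. The 5′ end of the mRNA matters for this assay, since NAD+ takes the place of the starting nucleotide when transcription initiates at A.

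The start-site sequences of the S10, S25 and S13 paralogs are shown because their log2 fold changes against mock mRNA differed within a family. In that order, the largest difference was 2.96, 1.53 and 1.39 log2 units in m7G-depleted SPAAC. It was 3.02, 1.37 and 1.23 in m7G-depleted CuAAC, 2.51, 1.09 and 0.70 in mock SPAAC, and 2.66, 1.09 and 0.55 in mock CuAAC. In the mock groups SA and S7 paralogs differed more than those of S13. Differences in the depleted groups also include the antibody step, so they do not measure capture alone. Each run holds the 100 bases before the annotated start and, as its last letter, the first transcribed base, 5′ to 3′ on the gene's strand, from RefSeq build TAIR10.1. Capitals mark site II elements on either strand.
RPS10B (AT5G41520, S10, chr5:16610692-16610792, minus strand): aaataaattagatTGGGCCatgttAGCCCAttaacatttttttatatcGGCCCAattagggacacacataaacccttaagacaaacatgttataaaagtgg
AT4G25740 (S10, chr4:13108827-13108927, minus strand): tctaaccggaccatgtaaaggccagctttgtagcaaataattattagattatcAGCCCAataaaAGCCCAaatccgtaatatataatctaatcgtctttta
AT5G52650 (S10, chr5:21357219-21357319, minus strand): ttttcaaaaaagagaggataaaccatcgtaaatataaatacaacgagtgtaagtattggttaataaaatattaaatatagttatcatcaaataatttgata
AT4G39200 (S25, chr4:18257234-18257334, plus strand): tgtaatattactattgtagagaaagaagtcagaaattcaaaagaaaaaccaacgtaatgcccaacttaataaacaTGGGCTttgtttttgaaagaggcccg
AT2G21580 (S25, chr2:9236381-9236481, plus strand): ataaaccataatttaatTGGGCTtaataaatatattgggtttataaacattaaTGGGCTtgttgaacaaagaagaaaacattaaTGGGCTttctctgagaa
AT3G60770 (S13, chr3:22461779-22461879, minus strand): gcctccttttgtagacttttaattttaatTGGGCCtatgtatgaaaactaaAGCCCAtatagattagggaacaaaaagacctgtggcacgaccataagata
RPS13A (AT4G00100, S13, chr4:36816-36916, plus strand): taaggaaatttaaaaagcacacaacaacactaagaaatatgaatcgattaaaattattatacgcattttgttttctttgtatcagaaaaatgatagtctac
In the S10 family, RPS10B held 3 site II elements, AT4G25740 held 2 and AT5G52650 none. In S25, AT4G39200 held 1 and AT2G21580 held 3, and in S13, AT3G60770 held 2 and RPS13A none. The annotated first base was G in RPS10B and A in its 2 paralogs, G in AT4G39200 and A in AT2G21580, and A in AT3G60770 and C in RPS13A. Between 250 bases before and 50 bases from the start, searched on both strands, 23 of the 40 members held a telo box (57.5%, against 6.22% of 27443 nuclear protein-coding genes) and 29 held a site II element (72.5%, against 21.7%). Of all telo boxes in the members' windows, 1 overlapped a site II element. An A at the annotated first base was found in 19 of 40 members (47.5%), close to the 43.4% of all nuclear protein-coding genes.

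The 15 libraries held 3806556 to 19798778 counts, and the members together took 13853 to 83392 of them. Captured and mRNA libraries differed in make-up, with 91 to 96.4% of counts on nuclear protein-coding genes in the captured libraries and 57.7 to 65.3% in mock mRNA. The direction of the members' mean combined share against mock mRNA turned on the denominator in all captured groups but m7G-depleted SPAAC. In that group it was lower on both measures. Of all counts, they took 0.273 ± 0.0112% in m7G-depleted SPAAC, 0.391 ± 0.0264% in mock SPAAC, 0.363 ± 0.00884% in m7G-depleted CuAAC, 0.46 ± 0.0179% in mock CuAAC and 0.336 ± 0.0241% in mock mRNA (SD, n = 3 each). Of nuclear protein-coding counts they took 0.288 ± 0.0115%, 0.406 ± 0.0273%, 0.397 ± 0.00907% and 0.481 ± 0.0191% in the same captured groups, against 0.556 ± 0.00115% in mock mRNA (SD, n = 3 each). On the second measure every captured library lay below every mRNA library. The groups differed in treatment and capture of seedling RNA, so the shares describe libraries. Neither cell numbers nor RNA per cell were measured.

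Levels are given as CPM (counts per 1000000), with library sizes scaled by trimmed mean of M values (TMM). Per kb of exon, the median level of the 40 members was 56.3 CPM per kb in m7G-depleted SPAAC, 83.5 in mock SPAAC, 81.6 in m7G-depleted CuAAC, 101.0 in mock CuAAC and 111.1 in mock mRNA. The highest member in mock mRNA and in m7G-depleted SPAAC was AT5G20290, the only S8 gene in the set, at 419.1 and 146.5 CPM per kb. In mock SPAAC the S14 gene AT3G11510 was highest (197.9), in mock CuAAC the S5 gene AT3G11940 (RPS5A, 275.6), and in m7G-depleted CuAAC the S23 gene AT5G02960 (210.9). AT5G09500 had 0 counts in all 3 mRNA libraries, which allows up to 0.154 per 1000000 counts over that group, without TMM scaling (3 counts, counting error only).

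Captured RNA was compared with mRNA-seq to ask which 40S transcripts were over- or under-represented in the captured libraries. All mRNA-seq libraries came from mock-treated RNA, and none from m7G-depleted RNA. Comparisons of the m7G-depleted groups with mock mRNA therefore combine the antibody step with NAD capture and do not separate them. The mock captured groups shared the mock treatment with mock mRNA. Most tested members were lower in m7G-depleted SPAAC RNA, where 19 of 38 fell and none rose. A member was called when its adjusted p was under 0.05 (edgeR's quasi-likelihood test, Benjamini-Hochberg over 21456 genes) and its fold was at least 2. Among all genes 13.8% were called lower and 10.9% higher. The members' median log2 fold change was -0.97, against 0.06 over all genes, and 35 of 38 were lower past the adjusted p alone (25.6% of all genes). The largest falls were in RPS10B (-3.20 ± 0.12, SE), AT4G39200 of S25 (-2.58 ± 0.12) and AT5G28060 of S24 (-2.02 ± 0.11), with adjusted p of 1.08e-14, 2.18e-13 and 2.12e-12 by that test. When libraries were scaled by their totals instead, the all-gene median moved to 0.82 and the members' to -0.21, so the distance between them was -1.03 on either scale. With each library's trend with exon length removed, the members' median was -0.22, against 0.01 over all genes, a distance of -0.23. Past the adjusted p alone, 18 members were lower and 7 higher with library totals, and 16 lower and 8 higher with the length trend removed. The 19 calls became 5 with library totals, 5 with the length trend removed, and 9 when edgeR's glmTreat tested against the 2-fold limit itself. Here and below, counts under such alternative settings have no background beside them unless a share of all genes is printed.

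**Figure D1:**
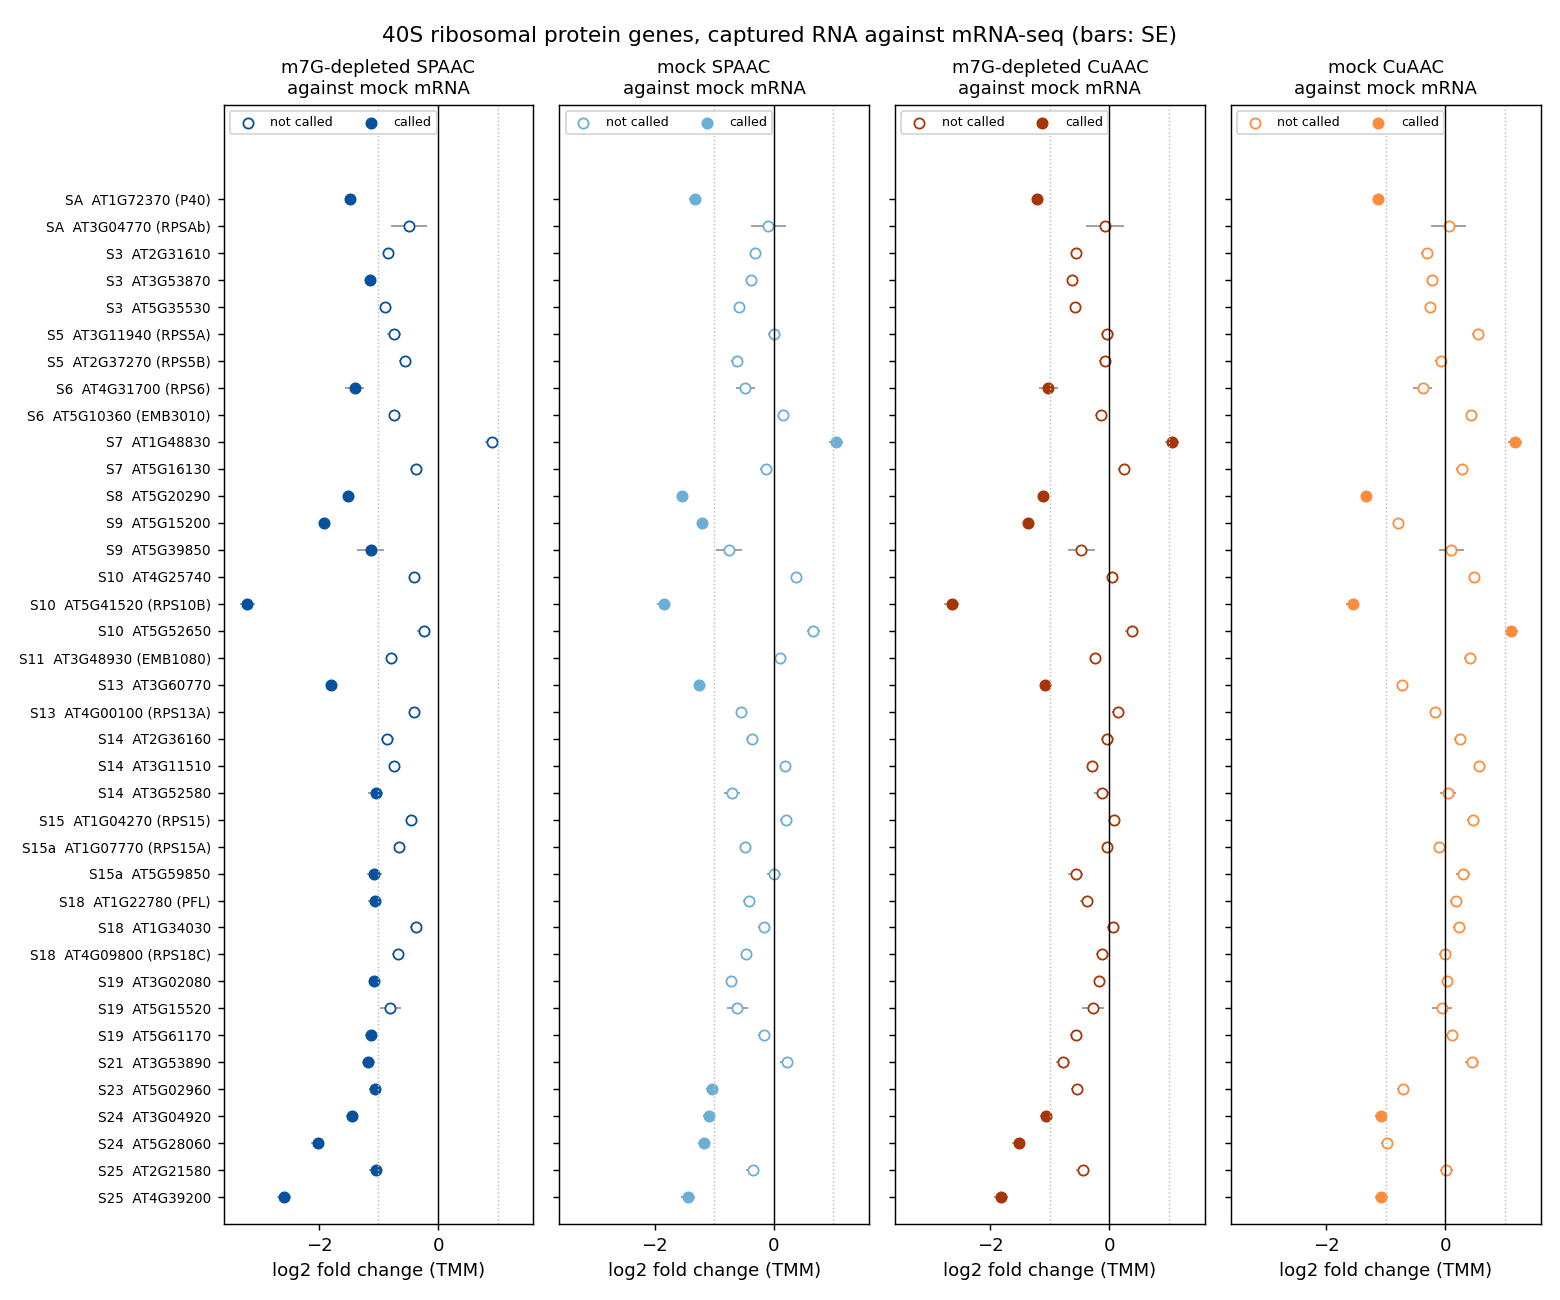
Log2 fold change (TMM) of each of the 38 tested 40S genes, by protein family from SA at the top to S25 at the bottom, in each captured group against mock mRNA. Points are fitted values with SE bars, filled where called and open where not, and dotted lines mark a 2-fold change. RPS10B lies farthest left in all 4 panels, from -3.20 to -1.55, while AT1G48830 lies farthest right, from 0.91 to 1.17, and its paralog AT5G16130 lies near 0.

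In mock SPAAC RNA, 9 of 38 tested members fell against mock mRNA and 1 rose, where 5.17% of all genes were called lower and 1.9% higher. The members' median was -0.43, against 0.07 over all genes. On library totals it was 0.28, against 0.80 over all genes, so its sign turned while its distance from the other genes stayed (-0.50 with TMM and -0.52 with totals), and with the length trend removed the distance was -0.37. The members called lower were RPS10B, AT5G20290 (S8), AT4G39200 (S25), P40 (SA), AT3G60770 (S13), AT5G15200 (S9), both S24 genes (AT5G28060 and AT3G04920) and AT5G02960 (S23). AT1G48830 of S7 was the member that rose (1.05 ± 0.12, SE, adjusted p = 3.54e-07, edgeR's quasi-likelihood test). It was not called without mock SPAAC replicate 2 (0 members higher), with the compared groups fitted alone, or with glmTreat. The lower count was 1 with library totals and 4 with glmTreat. RPS10B was called in all 16 alternative settings, at -1.92 to -1.14.

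In m7G-depleted CuAAC RNA, 9 of 38 tested members fell and 1 rose, where 12.6% of all genes were called lower and 5.39% higher. The members' median was -0.33, against -0.02 over all genes, and became 0.29 on library totals, against 0.61 over all genes. With the length trend removed it was 0.01, against -0.01 over all genes. RPS10B (-2.65 ± 0.12, SE), AT4G39200 (-1.82 ± 0.12) and AT5G28060 (-1.52 ± 0.11) were again the lowest, with adjusted p of 4.84e-13, 7.34e-11 and 3.88e-10 by edgeR's quasi-likelihood test. AT1G48830 was the member that rose (1.05 ± 0.12, adjusted p = 2.34e-07, edgeR). It was not called without m7G-depleted CuAAC replicate 3 (0 members higher) or with a minimum of 5 CPM. The 9 lower calls became 2 with library totals, 4 with the length trend removed and 4 with glmTreat.

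In mock CuAAC RNA, 5 of 38 tested members were called lower than in mRNA-seq and 2 higher. These shares sat near the background, since 11.2% of all genes were called lower and 5.09% higher. The median was 0.02, against 0.01 over all genes, 0.63 against 0.62 on library totals, and -0.13 against 0.03 with the length trend removed. RPS10B (-1.55 ± 0.11, SE), AT5G20290 (-1.32 ± 0.08) and P40 (-1.12 ± 0.09) were lowest, with adjusted p of 3.05e-10, 2.17e-11 and 2.22e-09 by edgeR's quasi-likelihood test. AT3G04920 and AT4G39200 were lower too (-1.07 each), but neither was called without mock CuAAC replicate 3, which left 3 members lower. AT1G48830 (1.17 ± 0.12, adjusted p = 4.02e-08) and AT5G52650 of S10 (1.11 ± 0.11, adjusted p = 5.8e-08, edgeR) were higher, and neither was called with the length trend removed (0.95 and 0.91). With library totals no member was called lower and 9 were called higher, and with glmTreat 2 were called lower and none higher. The shares of all genes under these settings are not given, and the all-gene median itself was 0.62 on library totals.

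All 4 of these comparisons share the same 3 mRNA libraries, so their values stand side by side and are not independent. Counted over the 4, RPS10B, AT5G20290, AT4G39200, P40 and AT3G04920 were called lower in each. AT5G15200, AT3G60770 and AT5G28060 were called lower in 3, AT5G02960 and RPS6 (AT4G31700) in 2, and 9 members in 1. Among all 21456 genes 2.45% were called lower in all 4, 1.91% in 3, 7.93% in 2 and 11.3% in 1. The remaining 21 of 40 members, the 2 untested ones included, were called lower in none.

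The S10 family gave the widest spread between paralogs. S10 sits in the head of the subunit, near the mRNA entry channel. RPS10B (chr5:16609021-16610692) had 16.3, 15.2 and 11.5 CPM in m7G-depleted SPAAC, 32, 39.2 and 38.2 in mock SPAAC, 22, 19.4 and 21.5 in m7G-depleted CuAAC, and 45, 47.4 and 42.4 in mock CuAAC, against 128.4, 135.3 and 132.2 in mock mRNA. Every captured library was below every mRNA library, and within each chemistry every depleted library was below every mock one. AT5G52650 had 68.2, 85.1 and 72.6 CPM in m7G-depleted SPAAC, 130.3, 160.8 and 129.7 in mock SPAAC, 99.5, 121.5 and 123.6 in m7G-depleted CuAAC, and 186.5, 208.1 and 181.5 in mock CuAAC, against 89.9, 81.2 and 95.2 in mock mRNA. The groups other than m7G-depleted SPAAC, which overlapped the mRNA libraries, lay above them. AT4G25740 had 52.1, 58.1 and 52 CPM in m7G-depleted SPAAC, 92.4, 100.3 and 88.2 in mock SPAAC, 74.6, 73.9 and 74.9 in m7G-depleted CuAAC, and 99, 105.3 and 97.2 in mock CuAAC, against 75.5, 69 and 70.1 in mock mRNA. Its mock captured libraries were above the mRNA libraries, those of m7G-depleted CuAAC overlapped them, and those of m7G-depleted SPAAC were below. The 3 genes are alike in summed exon length (1008, 962 and 996 nt for RPS10B, AT4G25740 and AT5G52650).

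The ratio of paralogs within a library does not depend on how libraries are scaled. Per kb of exon, RPS10B made up 9.76 ± 1.71% of S10 family reads in m7G-depleted SPAAC, 13.2 ± 1.22% in mock SPAAC, 9.78 ± 1.09% in m7G-depleted CuAAC and 13 ± 0.259% in mock CuAAC, against 44.5 ± 1.94% in mock mRNA (SD, n = 3 each). It was the largest contributor of the family in mRNA-seq and the smallest in each captured group. AT5G52650 took 51.7 ± 2.06%, 51.2 ± 1.54%, 53.9 ± 3.26% and 56.4 ± 0.698% in the same captured groups, against 30.2 ± 1.79% in mock mRNA (SD, n = 3 each). The largest difference between S10 paralogs in log2 fold change against mock mRNA was 2.96 in m7G-depleted SPAAC, 2.51 in mock SPAAC, 3.02 in m7G-depleted CuAAC and 2.66 in mock CuAAC. The paralogs were singled out for this spread, so it is given as a description without a test.

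**Figure D2:**
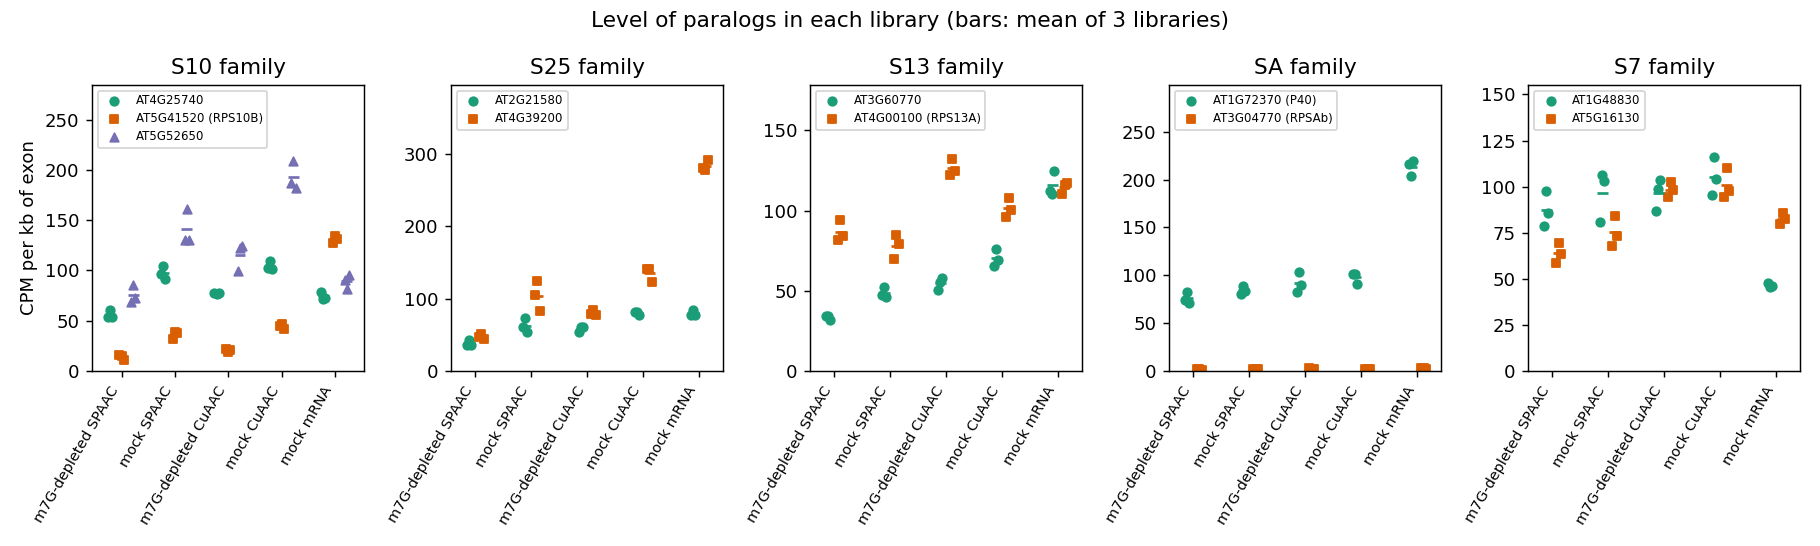
Level of each paralog in CPM per kb of exon (TMM) in every library for the S10, S25, S13, SA and S7 families. Symbols are libraries and short bars the mean of 3, with the captured groups on the left and mock mRNA on the right of each panel. The S10 panel shows RPS10B at 130.9 CPM per kb in mock mRNA and 14.2 to 44.6 in the captured groups, below both of its paralogs.

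S25, which in yeast and human cells is needed for initiation at certain internal ribosome entry sites, showed the same kind of split. AT4G39200 (chr4:18257334-18258900) had 41.6, 45.7 and 39.2 CPM in m7G-depleted SPAAC, 93.7, 111.7 and 74.1 in mock SPAAC, 70.7, 75.3 and 68.8 in m7G-depleted CuAAC, and 126.5, 125.5 and 109.4 in mock CuAAC, against 250.3, 248.1 and 260.1 in mock mRNA. Every captured library lay below every mRNA library. AT2G21580 had 29, 35 and 29.8 CPM in m7G-depleted SPAAC, 49.1, 59.5 and 43.4 in mock SPAAC, 43.8, 49.4 and 49.2 in m7G-depleted CuAAC, and 66.7, 66.7 and 63.2 in mock CuAAC, against 62.9, 69 and 62.8 in mock mRNA. It lay below the mRNA libraries in all captured groups but mock CuAAC, and was called lower in m7G-depleted SPAAC alone (-1.05 ± 0.11, SE, adjusted p = 6.52e-08, edgeR), a call lost with library totals, with glmTreat, with the length trend removed and without m7G-depleted SPAAC replicate 1. Of the reads per kb of the S25 genes in the set, AT4G39200 held 55.1 ± 1.29%, 62.4 ± 1.43%, 57.8 ± 1.77% and 62.5 ± 1.18% in m7G-depleted SPAAC, mock SPAAC, m7G-depleted CuAAC and mock CuAAC, against 78 ± 1.27% in mock mRNA (SD, n = 3 each).

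S13 lies on the body of the subunit, and loss of RPS13A is known to give Arabidopsis pointed first leaves. AT3G60770 (chr3:22460189-22461779) had 31.1, 31.5 and 29 CPM in m7G-depleted SPAAC, 43.2, 47.7 and 42.5 in mock SPAAC, 46.1, 50.7 and 53.3 in m7G-depleted CuAAC, and 59.8, 69.5 and 63.5 in mock CuAAC, against 102.5, 101.0 and 114.2 in mock mRNA. RPS13A had 79.4, 91.6 and 81.7 CPM in m7G-depleted SPAAC, 68.2, 82.6 and 76.9 in mock SPAAC, 118.9, 128.6 and 121.2 in m7G-depleted CuAAC, and 93.6, 104.8 and 98 in mock CuAAC, against 107.3, 112.8 and 114.0 in mock mRNA. AT3G60770 lay below all mRNA libraries in all captured groups. RPS13A lay above them in m7G-depleted CuAAC, by a log2 fold change of 0.14 ± 0.09 that did not pass (SE, adjusted p = 0.204, edgeR), and below them in the other captured groups. The pair was near equal in mRNA-seq, where AT3G60770 held 50.3 ± 1.41% of S13 reads per kb. It held 27.9 ± 1.38% in m7G-depleted SPAAC, 38.4 ± 1.66% in mock SPAAC, 30.2 ± 1.44% in m7G-depleted CuAAC and 40.9 ± 0.47% in mock CuAAC (SD, n = 3 each).

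S7 was the family whose member AT1G48830 rose in 3 of the 4 comparisons with mRNA-seq. AT1G48830 (chr1:18059450-18061302) had 85.5, 105.8 and 93.1 CPM in m7G-depleted SPAAC, 87.7, 115.0 and 111.6 in mock SPAAC, 94.3, 107.0 and 112.4 in m7G-depleted CuAAC, and 103.6, 125.4 and 112.6 in mock CuAAC, against 51.8, 49.6 and 50 in mock mRNA. All captured libraries were above all mRNA libraries. Its paralog AT5G16130 had 57.8, 69 and 62.7 CPM in m7G-depleted SPAAC, 67.3, 83.3 and 72.4 in mock SPAAC, 93.2, 101.3 and 97.1 in m7G-depleted CuAAC, and 93.5, 108.8 and 96.3 in mock CuAAC, against 78.8, 84.7 and 81.5 in mock mRNA. These lay below the mRNA libraries in m7G-depleted SPAAC, overlapped them in mock SPAAC and lay above them in both CuAAC groups. Of the reads per kb of the S7 genes in the set, AT1G48830 held 57.8 ± 0.492%, 56.2 ± 2.11%, 49.5 ± 1.71% and 51.1 ± 0.705% in m7G-depleted SPAAC, mock SPAAC, m7G-depleted CuAAC and mock CuAAC, against 36.1 ± 1.34% in mock mRNA (SD, n = 3 each). Some 6.65% of its exon bases overlap AT1G48820 on the other strand, which averaged 0.169 CPM.

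SA, a protein of the solvent side that is related to the laminin receptor of animals, was represented almost wholly by transcripts of P40 (AT1G72370, chr1:27242845-27244931). P40 had 96.2, 106.7 and 91.4 CPM in m7G-depleted SPAAC, 104.4, 114.2 and 107.9 in mock SPAAC, 106.4, 133.5 and 116.3 in m7G-depleted CuAAC, and 130.8, 130.1 and 117.7 in mock CuAAC, against 278.1, 261.9 and 282.2 in mock mRNA. All captured libraries were below all mRNA libraries, and the 4 captured groups lay close to each other. Its log2 fold changes against mock mRNA were -1.48, -1.33, -1.21 and -1.12 in m7G-depleted SPAAC, mock SPAAC, m7G-depleted CuAAC and mock CuAAC, each with an SE of 0.09. The paralog RPSAb (AT3G04770) averaged 2.59 ± 0.499, 3.39 ± 0.329, 3.44 ± 1.52 and 3.78 ± 0.187 CPM in the same captured groups, against 3.63 ± 0.885 CPM in mock mRNA (SD, n = 3 each), and was called in none of the 4 comparisons. Exon overlaps of 9.62% between P40 and ERF73 on the other strand, and of 8.96% between RPSAb and AT3G04780, leave some reads of these genes uncertain.

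Among the families represented by a single gene in the set, AT5G20290 (S8) had 158.2, 173.1 and 159.7 CPM in m7G-depleted SPAAC, 151.3, 170.4 and 161.3 in mock SPAAC, 218.6, 219.3 and 212.8 in m7G-depleted CuAAC, and 183.0, 203.1 and 177.4 in mock CuAAC, against 468.1, 465.6 and 470.8 in mock mRNA. It was lower in every captured library, by -1.52, -1.54, -1.11 and -1.32 on the log2 scale in that order of groups (SE 0.08 each). AT3G53890, the S21 gene of the set and the shortest tested member at 672 nt, differed more between depleted and mock libraries than between mock captured libraries and mRNA-seq. It had 37.9, 39.1 and 34.2 CPM in m7G-depleted SPAAC, 100.5, 111.7 and 79.8 in mock SPAAC, 48, 51.3 and 46.8 in m7G-depleted CuAAC, and 114.1, 109.6 and 118.4 in mock CuAAC, against 83.3, 90.2 and 77.9 in mock mRNA. Mock CuAAC lay above the mRNA libraries, mock SPAAC overlapped them, and both depleted groups lay below them. EMB1080 (AT3G48930), the S11 gene of the set, was called in none of the 4 comparisons.

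Both S24 genes were lower in the captured groups. AT5G28060 had 23.7, 27.7 and 27 CPM in m7G-depleted SPAAC, 46.7, 49.5 and 45.3 in mock SPAAC, 30.6, 40.4 and 39.9 in m7G-depleted CuAAC, and 48.9, 56.1 and 57.8 in mock CuAAC, against 101.5, 103.7 and 112.8 in mock mRNA. All captured libraries were below all mRNA libraries. AT3G04920 averaged 33.2 ± 0.545, 42.9 ± 2.49, 43.4 ± 3.27 and 43.1 ± 4.91 CPM in the same captured groups, against 91.1 ± 6.2 CPM in mock mRNA (SD, n = 3 each). The S9 gene AT5G15200, whose protein contacts mRNA at the entry channel, averaged 78.3 ± 1.72, 129.1 ± 8.63, 114.6 ± 8.56 and 171.7 ± 8.22 CPM in them, against 297.1 ± 9.45 CPM in mock mRNA (SD, n = 3 each). AT3G04920, AT5G15200 and the genes listed by number of calls above fall outside the rule for naming genes and were added after their values were seen.

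Across the 14 families with at least 2 tested paralogs, the median difference between the highest and lowest paralog was 0.68 log2 units in m7G-depleted SPAAC, 0.63 in mock SPAAC, 0.66 in m7G-depleted CuAAC and 0.58 in mock CuAAC, each against mock mRNA. A difference of at least 1 log2 unit was found in 5, 4, 4 and 3 families in that order. Read sharing between paralogs was limited, as 34 of 40 members had no exonic 50-base word elsewhere in the genome and the highest share was 8.33% (RPS15A). Among members with smaller changes, the S3, S5, S14, S15, S15a, S18 and S19 genes had no call against mock mRNA outside m7G-depleted SPAAC. PFL (AT1G22780), an S18 gene known for its pointed first leaf mutant, was called lower there (-1.06), as were AT3G53870 (S3), AT3G52580 (S14), AT5G59850 (S15a), AT3G02080 and AT5G61170 (both S19). These 6 calls were each lost with library totals, with glmTreat and with the length trend removed. The call of AT3G52580 was also lost without m7G-depleted SPAAC replicate 3 or mock mRNA replicate 1, and that of AT5G59850 without mock mRNA replicate 2.

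The antibody comparison asked how removing m7G-capped RNA before capture changed each transcript. In SPAAC, 4 of 38 tested members fell and none rose in m7G-depleted against mock libraries, and in CuAAC 2 fell and none rose. These counts were near or under the background, where 9.66% of all genes were called lower and 7.37% higher in SPAAC, and 8.24% lower and 6.32% higher in CuAAC. AT3G53890 (S21) fell by 1.39 ± 0.10 (SE) in SPAAC and by 1.23 ± 0.11 in CuAAC, with adjusted p of 6.5e-10 and 7.9e-09 by edgeR's quasi-likelihood test. RPS10B fell by 1.35 ± 0.11 and 1.10 ± 0.12, with adjusted p of 3.21e-09 and 1.52e-07 by that test. AT4G39200 (S25) fell by 1.14 ± 0.11 and AT5G59850 (S15a) by 1.06 ± 0.12 in SPAAC, and both calls were lost without mock SPAAC replicate 2, which left 2 members called, while leaving out m7G-depleted SPAAC replicate 2 gave 7. Some 11.1% of the exon bases of AT5G59850 overlap AT5G59860 on the other strand, which averaged 25 CPM.

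Smaller shifts were common, since 27 of 38 members in SPAAC and 24 of 38 in CuAAC were lower past the adjusted p alone, against 26.7% and 23% of all genes. With the length trend removed, 5 were lower and 11 higher in SPAAC and 3 lower and 15 higher in CuAAC past the same adjusted p. Those counts have no share of all genes beside them and are not read as a rise of the members. In that setting the members' medians less those of all genes were 0.04 in SPAAC and 0.13 in CuAAC. With TMM alone, RPS13A (0.31 ± 0.09, SE, adjusted p = 0.00502) and AT5G20290 (0.21 ± 0.08, adjusted p = 0.0305, edgeR) were higher past it in CuAAC (24.3% of all genes). The summed level of the 5 root markers moved with depletion too. It was 1402 to 1508 CPM in m7G-depleted SPAAC against 2009 to 2246 in mock SPAAC. In CuAAC it was 1182 to 1364 in m7G-depleted libraries against 1781 to 1974 in mock ones. The 5 markers of green tissue summed to 39311 to 50327 CPM in m7G-depleted SPAAC against 37337 to 43629 in mock SPAAC, and to 59962 to 63817 in m7G-depleted CuAAC against 46668 to 51467 in mock CuAAC. The root sums did not overlap in either chemistry and the green sums did not in CuAAC. Sums are weighted to the abundant markers and do not show that each marker moved. The lowest green marker mean was 4220 CPM in m7G-depleted CuAAC and 4510 in mock CuAAC, so not every green marker rose. The antibody was added to poly(A) RNA, so these sums describe marker transcripts and do not measure tissue make-up. Their relation to the members' shift was not tested. The members' median was -0.53 in SPAAC and -0.37 in CuAAC, against -0.01 and 0.01 over all genes. Transcript length moved with this comparison. Members are short, with a median summed exon length of 967 nt against 1553 nt for nuclear protein-coding genes. The 7924 tested nuclear protein-coding genes within the members' range of 661 to 1653 nt had medians of -0.46 in SPAAC and -0.41 in CuAAC, close to those of the members. With each library's length trend removed, no member was called in either chemistry, the medians were 0.06 and 0.15, AT3G53890 stood at -0.65 and -0.53, and RPS10B stood at -0.70 and -0.52.

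**Figure D3:**
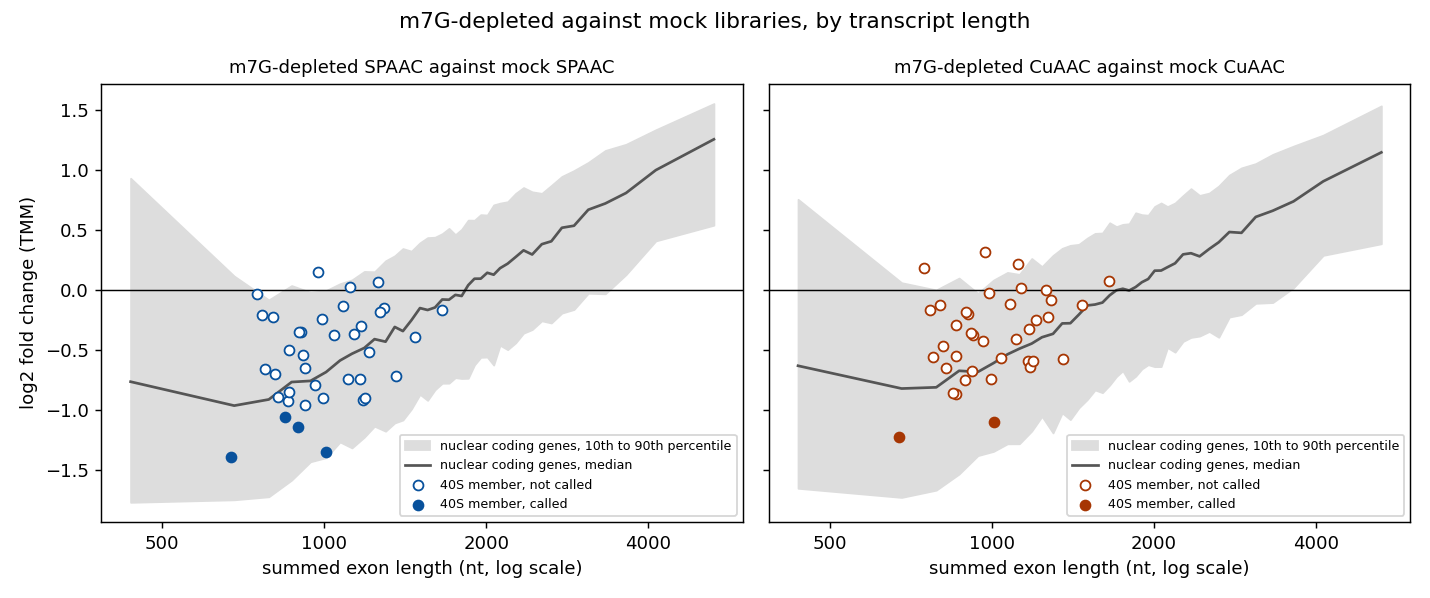
Log2 fold change (TMM) in m7G-depleted against mock libraries, plotted by summed exon length in nt on a log axis, for SPAAC on the left and CuAAC on the right. Circles are the 38 tested 40S genes, filled where called, the line is the median of nuclear protein-coding genes in bins of equal gene number, and the band runs from their 10th to 90th percentile. The members spread around the line for their length, with medians of -0.53 and -0.37.

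Among the members themselves, length and fold change were only weakly related. Over the 38 tested members, Spearman's rho between length and log2 fold change was 0.26 for depletion in SPAAC and 0.27 in CuAAC, and 0.04 in m7G-depleted SPAAC, -0.18 in mock SPAAC, -0.03 in m7G-depleted CuAAC and -0.28 in mock CuAAC, each against mock mRNA. Over 19712 nuclear protein-coding genes it was 0.66 and 0.62 for depletion, and 0.60, 0.08, 0.23 and -0.34 in the comparisons with mRNA-seq, values that describe genes sharing the same libraries and carry no test. Genes in the members' length range had medians of -0.47 in m7G-depleted SPAAC, 0.02 in mock SPAAC, -0.20 in m7G-depleted CuAAC and 0.25 in mock CuAAC, against -0.97, -0.43, -0.33 and 0.02 for the members.

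Whether the depletion effect differed between the chemistries depended on the replicate block for 3 members. In the interaction contrast (SPAAC minus CuAAC) without the block, 0 of 38 members passed the adjusted p in edgeR (0.00932% of all genes lower, 0.00466% higher) and 0 in DESeq2, while 7 had an unadjusted p under 0.05 in each tool. With the 2-fold limit added, 0.00466% of all genes were called lower and 0% higher. The members' differences ran from -0.39 to 0.19, with a median of -0.19 and a median SE of 0.13. With the replicate number as a block, 3 members were lower past the adjusted p and none higher, where 0.433% of all genes were lower and 0.117% higher, and 20 members had an unadjusted p under 0.05. The 3 were AT4G25740 of S10 (-0.36 ± 0.09, SE, adjusted p = 0.0157), AT3G53870 of S3 (-0.33 ± 0.08, adjusted p = 0.0227) and EMB3010 (AT5G10360) of S6 (-0.30 ± 0.08, adjusted p = 0.0361, edgeR with the block), named after their values were seen. With the block and the length trend removed together, none passed.

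The chemistries were compared to ask whether copper-free and copper-catalysed capture represent these transcripts equally. No member reached a 2-fold difference in either direction, but nearly all stood lower in SPAAC with TMM scaling, a sign that turned for 4 members in mock RNA on library totals. In m7G-depleted RNA, 35 of 38 tested members were lower in SPAAC past the adjusted p alone (17.3% of all genes), and in mock RNA 27 of 38 were (15.1%), by edgeR's quasi-likelihood test. None was higher past it (21.7% and 21.5% of all genes). With the length trend removed 10 and 7 were lower and none higher, and with the replicate block as well 21 and 11 were lower and 1 and 5 higher. With library totals 28 and 17 were lower. No share of all genes is given for the counts under these alternative settings. The log2 fold changes ran from -0.91 to -0.14 in m7G-depleted RNA and from -0.84 to 0 in mock RNA, with medians of -0.54 and -0.35 against -0.01 over all genes in each. With the 2-fold limit, 0 members were called by edgeR and 0 by DESeq2, where 7.3% of all genes were called higher and 0.895% lower in m7G-depleted RNA, and 6.47% higher and 0.508% lower in mock RNA. At an unadjusted p under 0.05, 36 members passed in m7G-depleted RNA and 31 in mock RNA.

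Length moved with this comparison as well, since nuclear protein-coding genes in the members' length range had medians of -0.34 in m7G-depleted and -0.27 in mock RNA. With the length trend removed the members' medians were -0.19 and -0.06, and the sign turned for 4 and 12 of the 38 members. On library totals the medians were -0.42 and -0.24. The largest difference between paralogs of a family was 0.48 in m7G-depleted and 0.47 in mock RNA.

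**Figure D4:**
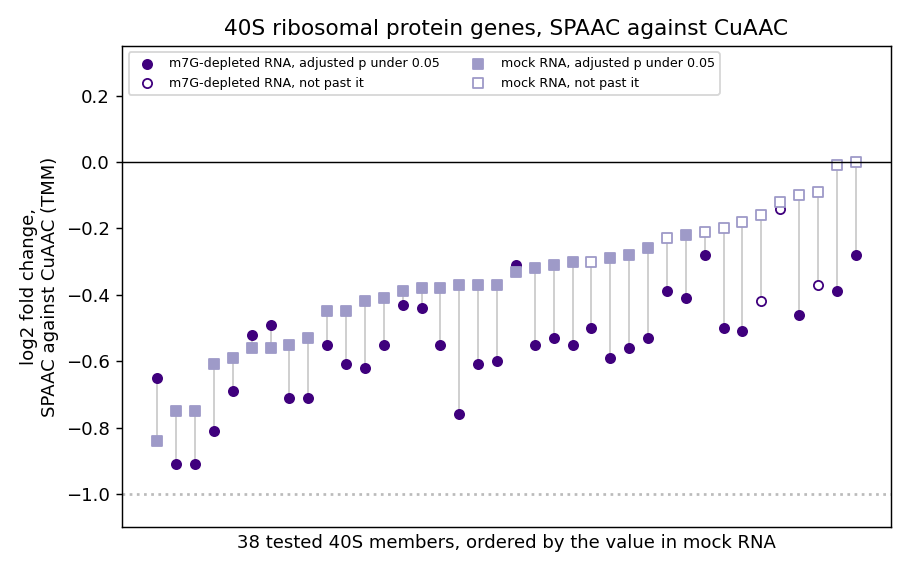
Log2 fold change (TMM) of SPAAC against CuAAC libraries for each of the 38 tested 40S genes, with dark circles for m7G-depleted RNA and light squares for mock RNA joined by a line per gene. Filled symbols passed the adjusted p of 0.05, and genes are ordered by their value in mock RNA. All values lie between -0.91 and 0 with this scaling, above the dotted 2-fold line.

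The other genes of the ribosome gave a setting for these values. Of 58 further 40S subunit genes (S2, S3a, S4, S12, S16 and other families), 51 were tested, and 33, 11, 20 and 7 of them were called lower in m7G-depleted SPAAC, mock SPAAC, m7G-depleted CuAAC and mock CuAAC against mock mRNA. Of 118 genes of the 60S subunit, 116 were tested, and 78, 49, 55 and 39 were called lower in the same order. Median log2 fold changes were -1.26, -0.46, -0.80 and -0.16 in the other 40S genes and -1.48, -0.74, -0.93 and -0.48 in the 60S genes, against -0.97, -0.43, -0.33 and 0.02 in the members. The lowest of the other 40S genes included AT5G47930 in m7G-depleted SPAAC (-3.35 ± 0.11, SE, adjusted p = 1.62e-15) and AT1G15930, an S12 gene, in mock SPAAC (-2.34 ± 0.10, adjusted p = 3.15e-13, edgeR), while AT3G04840, an S3a gene, was called higher in mock SPAAC (1.03 ± 0.12). Whether the members differ from these lists was not tested.

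Start-site features were set beside the calls as a description. Of the 22 tested members with a telo box and the 16 without, 13 and 6 were called lower in m7G-depleted SPAAC, 9 and 0 in mock SPAAC, 8 and 1 in m7G-depleted CuAAC, and 5 and 0 in mock CuAAC, each against mock mRNA. The higher calls of AT1G48830 fell in the telo box class and that of AT5G52650 outside it. Among the other tested nuclear protein-coding genes, 1059 with a telo box and 18614 without, 16.1% and 12.9% were called lower in m7G-depleted SPAAC, 6.99% and 4.04% in mock SPAAC, 14.1% and 11.1% in m7G-depleted CuAAC, and 13.2% and 9.59% in mock CuAAC. Of the 27 tested members with a site II element and the 11 without, 16 and 3 were called lower in m7G-depleted SPAAC, 8 and 1 in mock SPAAC, 8 and 1 in m7G-depleted CuAAC, and 4 and 1 in mock CuAAC. Their medians were -1.06 and -0.68 in m7G-depleted SPAAC, -0.48 and -0.41 in mock SPAAC, -0.54 and -0.13 in m7G-depleted CuAAC, and 0.02 and 0.06 in mock CuAAC. In the other genes, 15.1% with a site II element and 12.4% without were called lower in m7G-depleted SPAAC, 6.12% and 3.56% in mock SPAAC, 12.9% and 10.7% in m7G-depleted CuAAC, and 11.9% and 9.09% in mock CuAAC. The medians of the telo box class and of the rest were -1.06 and -0.82 in m7G-depleted SPAAC, -0.43 and -0.44 in mock SPAAC, -0.41 and -0.29 in m7G-depleted CuAAC, and 0.02 and 0.00 in mock CuAAC. Members with A at the annotated first base had medians of -0.84, -0.37, -0.34 and 0.04 in that order, and those with another base -1.06, -0.48, -0.33 and -0.01. The 5 lowest members in m7G-depleted SPAAC did not share a first base, with G in RPS10B and AT4G39200 and A in AT5G28060, AT5G15200 and AT3G60770, and AT1G48830, the highest, has A too. A motif match in a start window is not a bound site, and the annotated start was not measured in these libraries.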

How the data were processed

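For each of 15 poly(A) RNA libraries the authors deposited unnormalised counts of reads per gene beside the summed exon length, per the file headers. Tools listed in the submitters' processing notes are DESeq2, featureCounts (2.0.0) and STAR (2.7.3a), with no step assigned to any. Which genome build was used is not given in sources used here. Of 37361 gene identifiers, 99.2% matched TAIR10.1, and all 40 members had equal exon lengths there, so its coordinates and sequences were used. An antisense gene pair had identical counts in 15 of 15 libraries, so strands were not separated in counting, and overlapping genes share reads.

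The 15 libraries, 3806556 to 19798778 counts deep, entered a joint edgeR 4.0.16 fit (R 4.3.3) without a replicate block, with TMM factors, filterByExpr (21456 genes kept) and the robust quasi-likelihood test, with Benjamini-Hochberg adjustment over all genes tested. Calls needed an adjusted p under 0.05 and a fold of at least 2. The common biological coefficient of variation was 12.3%. The script was tested on simulated counts. Replicates differed by more than sampling noise (chi-square per degree of freedom 4.05 to 16.5). Same-numbered libraries deviated together in 30 of 30 pairs of groups (correlations 0.188 to 0.761), so the numbers pair the libraries, as far as the data show, and the blocked fit was an alternative. P-values given without mention of the block leave this pairing out. With the block the members' median SE was smaller, 0.06 against 0.09 for mock SPAAC against mock CuAAC and 0.09 against 0.13 for the interaction contrast. Other alternatives were library totals, TMM on nuclear protein-coding genes, DESeq2 1.42.0, other filters, glmTreat, the compared groups alone, a lowess trend with exon length removed, and leaving out each library. Intervals are SD or SE over libraries, and floors cover counting error only.

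The members and gene lists were chosen with earlier results of these data known. Named genes were, per comparison, up to 3 called members in each direction with the largest change at a mean of at least 10 CPM, and every paralog of a family whose members differed by at least 1 log2 unit against mock mRNA. Other genes of the ribosome were given by counts, with up to 2 named per direction.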

Additional observations from a re-analysis of the deposited data

How the results depend on the processing

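Counts of the 38 tested members called against mock mRNA depended on scaling, length and the way the 2-fold limit was tested. The counts in this section are of members alone, without shares of all genes. Library totals gave 1 higher and 5 lower for m7G-depleted SPAAC, 3 and 1 for mock SPAAC, 2 lower for m7G-depleted CuAAC, and 9 higher and 0 lower for mock CuAAC. On this scale the median of all genes was 0.82, 0.80, 0.61 and 0.62 in the same order of comparisons, and the members' medians less those were -1.03, -0.52, -0.32 and 0.01, against -1.03, -0.50, -0.31 and 0.01 with TMM and -0.23, -0.37, 0.02 and -0.16 with the length trend removed. The glmTreat test gave 9 lower for m7G-depleted SPAAC, 0 higher and 4 lower for mock SPAAC, 0 and 4 for m7G-depleted CuAAC, 0 and 2 for mock CuAAC, and, of m7G-depleted against mock libraries, 2 lower in SPAAC and 0 in CuAAC. Removing the length trend, with or without the replicate block, gave 1 higher and 5 lower for m7G-depleted SPAAC, 4 lower for m7G-depleted CuAAC, 0 higher for mock CuAAC, and 0 lower for depletion in each chemistry. The compared groups alone gave 0 higher in mock SPAAC, and a minimum of 5 CPM gave 0 higher in m7G-depleted CuAAC. Leaving out each library gave 0 to 1 higher in mock SPAAC, 0 to 1 higher in m7G-depleted CuAAC, 3 to 5 lower in mock CuAAC, and 2 to 7 lower for depletion in SPAAC. Past the adjusted p alone, the block gave 3 members lower for the difference in depletion between chemistries, where the fit without it gave 0. The replicate block alone, with 19 lower in m7G-depleted SPAAC and 9 lower and 1 higher in mock SPAAC, changed no count of members called at 2-fold. As a share of nuclear protein-coding counts in place of all counts, members held 0.288% in m7G-depleted SPAAC, 0.397% in m7G-depleted CuAAC and 0.481% in mock CuAAC, against 0.556% in mock mRNA. Among the alternatives run, no called member changed sign, but calls begin at a 2-fold change, which leaves little room for that. Of all 38 tested members, 13, 18, 20 and 9 changed sign with library totals in the same order of comparisons with mock mRNA. With the length trend removed, 17 did for depletion in SPAAC and 21 in CuAAC. Beyond what each alternative does by construction, the cause of these changes was not tested.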
